A study of Arabidopsis thaliana with 4 samples.

Results

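Transcripts of 5 flavonoid and anthocyanin synthesis genes were followed in leaves of wild-type Arabidopsis thaliana and of KO-nudx19 plants. The genes were DFR (AT5G42800), UGT78D2 (AT5G17050), AT4G14090 (known as UGT75C1), UF3GT (AT5G54060, also called UGT79B1) and AT5MAT (AT3G29590). They were taken by name, and each had 1 probe set naming that gene alone, so that 5 of 22810 probe sets are described here. None of the 5 probe sets carries the suffix by which the array maker marks probes shared between genes. All plants were of the accession Col-0, and in KO-nudx19 plants the NADPH-cleaving Nudix hydrolase NUDX19 is missing. Neither the allele nor the number of plants behind each sample is stated in the labels. After 1 week on medium holding 3% sucrose, seedlings were moved to soil for 2 weeks, at 25 °C in 16 h of light and 22 °C in 8 h of darkness. The light intensity was 100 µmol per m² per s. Rosette leaves were taken at 3 weeks, and RNA was hybridised to 4 Affymetrix ATH1 arrays, 2 per genotype, numbered 1 and 2 within each genotype.

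Flavonoids are phenolic compounds that plants build from phenylalanine by way of chalcones and dihydroflavonols. At the dihydroflavonols the pathway divides: flavonol synthase leads to flavonols, which leaves hold as sugar conjugates, and DFR (dihydroflavonol reductase, which uses NADPH) leads to the red and blue anthocyanins. UGT78D2 attaches a glucose to flavonols and to anthocyanidins and thus serves both branches. The other members act on anthocyanins: UF3GT adds a xylose to that glucose, AT4G14090 adds a glucose elsewhere on the ring system, and AT5MAT adds a malonyl group to the latter glucose.

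Signals are linear and in arbitrary units, as deposited by the authors, and each array had a trimmed mean of 200. The arrays resembled each other by number more than by genotype, with a correlation of log2 signals of 0.972 and 0.965 between same-numbered arrays and of 0.927 and 0.926 within wild type and KO-nudx19 (over 13648 probe sets, as a description). Poly(A) controls, bacterial transcripts added in the laboratory, parted by number too, with geometric means of 116 (wild type) and 98.2 (KO-nudx19) for replicate 1 but 19.9 and 21.0 for replicate 2. What the number means is not in the labels, and neither is whether plants were grown apart for each array. The p-values therefore cover only the spread among these arrays, possibly a technical one. NUDX19 itself had no probe set naming it and was not analysed here. Of the leaf markers, RCA, LHCB4.2, PSAN and PSAE-1 had signals from 6951 to 19541, and of the root markers, EXPA7 of root hairs had at most 6.28 and the beta-glucosidase gene PYK10 had 471 to 794. The guard cell marker FAMA had 77.5 to 85.8, with log2 differences of 0.04 by genotype and −0.11 by number. Flower, seed and leaf epidermis markers had no probe set naming them.

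None of the 3 members tested passed between the genotypes, while DFR and AT4G14090 had higher signals on both arrays numbered 2, in wild type and in KO-nudx19 alike. In that direction 23.6% of tested probe sets lay apart by number. Both genes passed the filter only through the arrays numbered 2. UGT78D2 was the only one of the 5 whose wild-type and KO-nudx19 arrays did not overlap, with lower signals in KO-nudx19. Among tested probe sets 11.8% lay apart in this direction too. UF3GT too had higher signals on both arrays numbered 2, and AT5MAT moved in opposite directions with the number in the genotypes. In RNA from whole leaves, fewer cells of a type and less RNA per cell cannot be told apart.

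**Figure D1:**
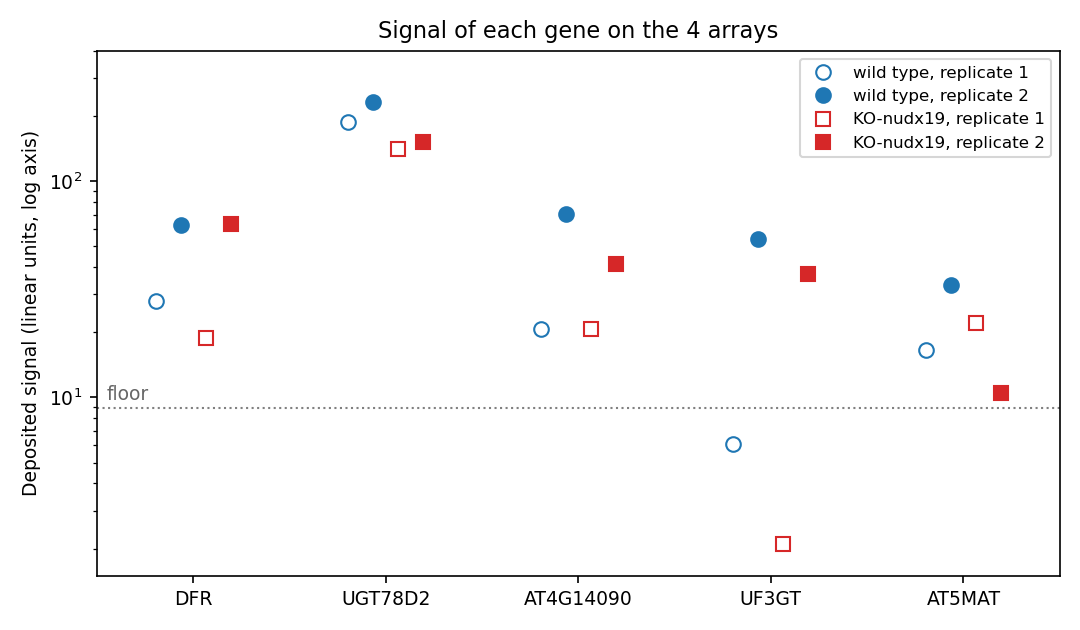
Deposited signal (vertical log axis, linear units) of the 5 genes on each array. Circles are wild type and squares KO-nudx19, open for replicate 1 and filled for replicate 2, and the dotted line is the floor of 8.92 set on signals before log2 was taken. Filled symbols lie above open ones in both genotypes for DFR, AT4G14090 and UF3GT, and for UGT78D2 both squares lie under both circles.

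KO-nudx19 was compared with wild type to see which leaf transcripts change in level without NUDX19. It was made with limma over 13648 probe sets whose mean signal over the arrays reached 38.2, on log2 of signals floored at 8.92, with Benjamini-Hochberg adjustment. Of these, 0 passed an adjusted p of 0.05 (0% called), and 89 had an unadjusted p under 0.05. The replicate number is not a term in this fit, so differences with the number enter the spread it tests against. With the number as a block, 738 had an unadjusted p under 0.05 in limma. That 0 passed therefore does not show that the genotypes are alike. DFR (mean 43.2), UGT78D2 (179) and AT4G14090 (38.4, just inside the filter) were tested, and UF3GT (24.8) and AT5MAT (20.5) were not. On the arrays numbered 1, the signals of DFR and AT4G14090 lay under the filter, so these genes were tested only through their signals on the arrays numbered 2.

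DFR, the reductase that opens the anthocyanin branch, had signals of 27.8 and 62.9 on wild-type replicates 1 and 2, and of 18.8 and 63.4 on KO-nudx19 replicates 1 and 2. The arrays numbered 2 were high and nearly equal in the 2 genotypes, the arrays numbered 1 were low, and the genotypes overlapped. The means were 45.4 ± 24.8 (wild type) and 41.1 ± 31.5 (KO-nudx19; SD, n = 2 each). The log2 difference, KO-nudx19 minus wild type, was −0.28 (SE 0.72, limma adjusted p = 1.00), with a 95% confidence interval from −2.04 to 1.48. Within replicate 1 it was −0.57, and within replicate 2 it was 0.01. Of all tested probe sets, 27.8% had a difference at least as large in size.

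UGT78D2, the glucosyltransferase of both branches, had signals of 188 and 233 on wild-type replicates 1 and 2, and of 141 and 152 on KO-nudx19 replicates 1 and 2. Both KO-nudx19 arrays were lower than both wild-type arrays, and the lowest wild-type signal was 1.24-fold above the highest in KO-nudx19. Among tested probe sets, 11.8% lay apart in this direction. The means were 211 ± 31.9 and 147 ± 7.51 (SD, n = 2 each), and wild type was 1.43-fold higher as a ratio taken from the mean log2 signals. The log2 difference was −0.52 (SE 0.26, limma adjusted p = 1.00), with a 95% interval from −1.15 to 0.12, and 7.15% of tested probe sets differed by at least as much. The difference had the same sign in both numbers, at −0.41 within replicate 1 and −0.62 within replicate 2, as for 24.8% of tested probe sets that were below 0 in both. With the replicate number as a block in the limma fit, the interval ran from −1.02 to −0.01, the adjusted p was 0.893, and 0.0147% of probe sets were called. Over 15 alternatives the log2 difference stayed between −0.67 and −0.36. The lowest limma adjusted p was 0.842, with quantile normalization and the block. Since its arrays did not overlap, leaving out 1 array could not turn the sign.

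Other signals parted by genotype as well. The 18 hybridisation control probe sets, which detect no plant RNA, had a geometric mean of 620 and 411 on wild-type replicates 1 and 2, and KO-nudx19 replicates 1 and 2 had 1054 and 1140. All 4 leaf markers were higher in KO-nudx19, and the root marker PYK10 was lower, with 607 and 794 against 544 and 471. EXPA7, the other root marker with a probe set of 6 listed, was under the floor on every array, and the summed root signal was 613 and 800 against 547 and 472. The part of these in the difference of UGT78D2 was not tested.

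**Figure D2:**
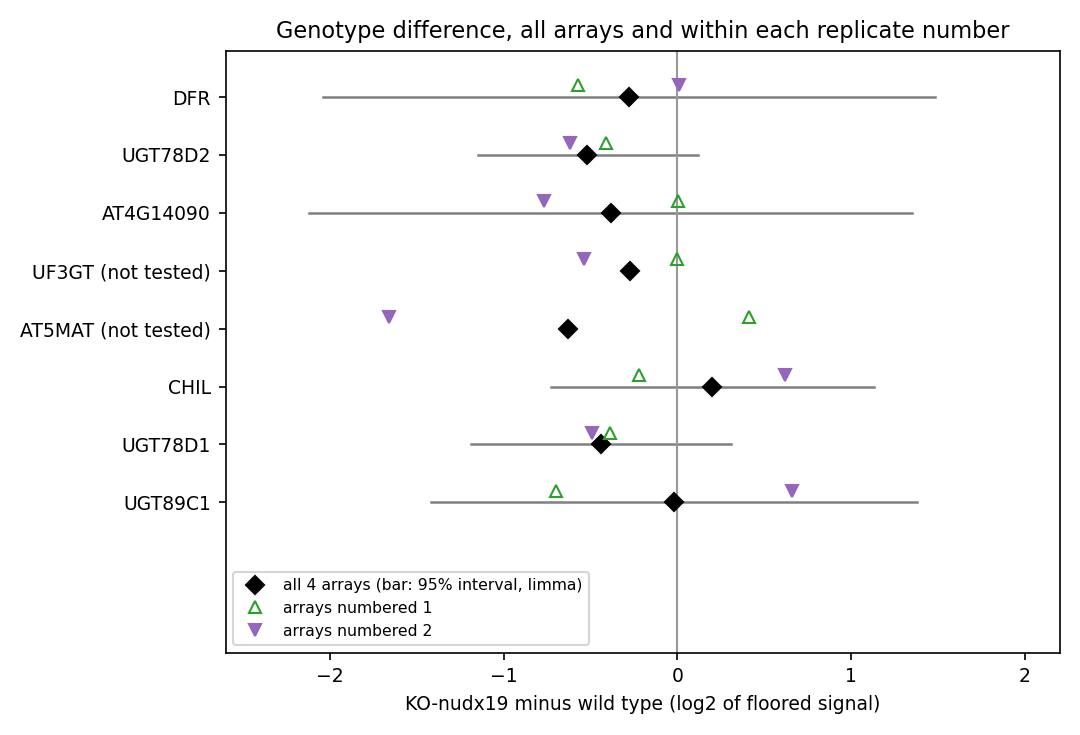
Log2 difference, KO-nudx19 minus wild type, for the 5 genes and for the other tested genes of the flavonoid pathway. Diamonds use all arrays, with bars for limma's 95% confidence interval, open triangles use the arrays numbered 1 and filled triangles those numbered 2. UGT78D2 and UGT78D1 lie below 0 in both numbers, and each interval drawn includes 0.

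AT4G14090, the anthocyanin glucosyltransferase, had nearly equal signals of 20.8 and 20.8 on wild-type and KO-nudx19 replicate 1, and of 70.6 and 41.4 on wild-type and KO-nudx19 replicate 2. The genotypes overlapped, and they lay apart only between the arrays numbered 2. The means were 45.7 ± 35.2 (wild type) and 31.1 ± 14.6 (KO-nudx19; SD, n = 2 each). The log2 difference was −0.38 (SE 0.71, limma adjusted p = 1.00), with a 95% interval from −2.12 to 1.35. Within replicate 1 it was 0.004 and within replicate 2 −0.77, and 15.2% of tested probe sets had a difference at least as large in size.

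UF3GT, the xylosyltransferase, had signals of 6.08 and 53.9 on wild-type replicates 1 and 2, and of 2.09 and 37.2 on KO-nudx19 replicates 1 and 2. Both arrays numbered 1 fell under the floor of 8.92, so their order carries no information, and the genotypes overlapped. The means were 30.0 ± 33.8 and 19.6 ± 24.8 (SD, n = 2 each), a log2 difference of −0.27 on floored values and of −1.04 with no floor. Between the arrays numbered 2, both above the floor, it was −0.54. When dim probe sets were also tested, its 95% interval in limma ran from −4.93 to 4.40, with an adjusted p of 1.00.

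AT5MAT, the malonyltransferase, had signals of 16.6 and 33.1 on wild-type replicates 1 and 2, and of 22.0 and 10.5 on KO-nudx19 replicates 1 and 2. The highest and the lowest of the 4 signals were those of wild-type and KO-nudx19 replicate 2, and the genotypes overlapped. The means were 24.8 ± 11.6 and 16.3 ± 8.18 (SD, n = 2 each), a log2 difference of −0.63. Within replicate 1 it was 0.41, and within replicate 2 it was −1.66. When dim probe sets were also tested, its 95% interval in limma ran from −2.70 to 1.44, with an adjusted p of 1.00. With the floor raised to the 40th percentile of all signals (37.1), all 4 values lay at the floor and the difference was 0.

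Log2 differences below 0 were thus seen for each of the 5 genes over all 4 arrays, against 50.0% of tested probe sets. On floored values UGT78D2 alone among the 5 was below 0 within both numbers, as were 24.8% of tested probe sets. UF3GT stood at 0 within replicate 1 only because both of its signals there lay under the floor. DFR (0.01 within replicate 2) and AT4G14090 (0.004 within replicate 1) missed by values close to 0, and AT5MAT stood at 0.41 within replicate 1. Leaving out single arrays turned the direction for DFR, AT4G14090 and UF3GT. Each such fit unbalances the numbers between the genotypes, so the shifts restate the differences with the number. DFR stood at 0.31 without wild-type replicate 2 and at 0.60 without KO-nudx19 replicate 1, against −0.87 and −1.16 without wild-type replicate 1 and KO-nudx19 replicate 2. AT4G14090 stood at 0.50 without wild-type replicate 2 and 0.11 without KO-nudx19 replicate 1, and UF3GT at 1.03 and 0.76. AT5MAT was −0.13 without wild-type replicate 2 and −0.089 without KO-nudx19 replicate 2, against −1.12 and −1.16 without wild-type replicate 1 and KO-nudx19 replicate 1.

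**Figure D3:**
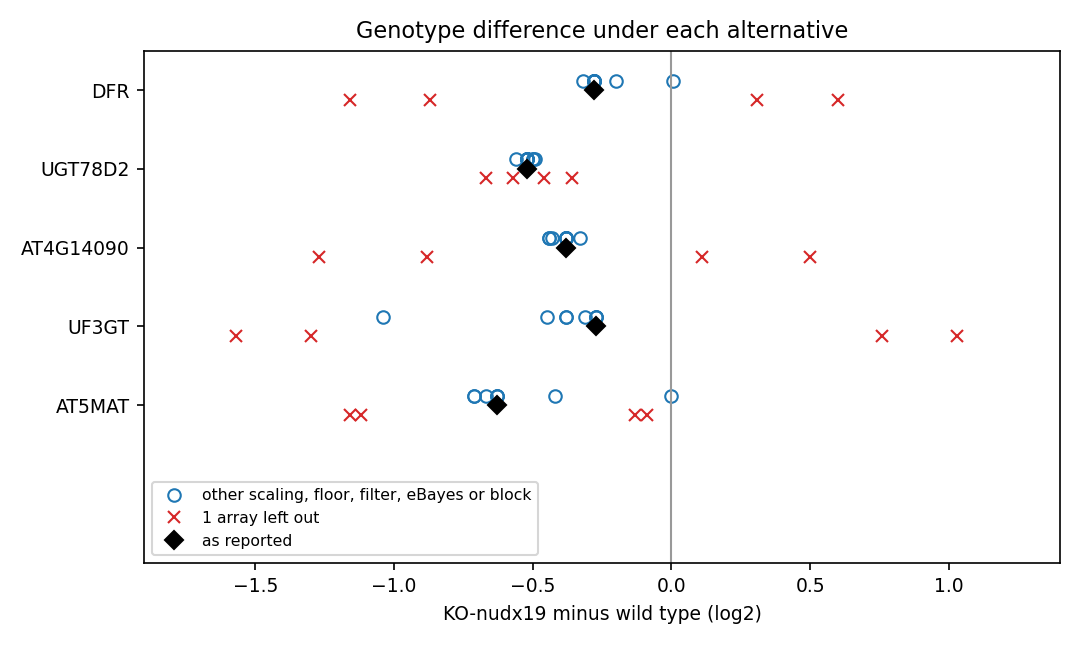
Log2 difference, KO-nudx19 minus wild type, of each gene as reported (diamonds), under other scalings, floors, filters, eBayes settings or the replicate block (circles), and with 1 array left out (crosses). For UGT78D2 all values lie between −0.67 and −0.36, while crosses for DFR, AT4G14090 and UF3GT lie on both sides of 0. Leaving out 1 array unbalances the numbers between the genotypes. For UGT78D2, whose arrays do not overlap, it could not turn the sign.

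The array number was compared in limma with genotype as a term, as replicate 2 minus replicate 1. Of the members tested, DFR and AT4G14090 were called higher on the arrays numbered 2, and UGT78D2 was not called. Since DFR and AT4G14090 passed the filter only through the arrays numbered 2, where they were high, their calls are a description and support nothing further. In this direction 4.93% of tested probe sets were called, and 6.32% were called lower. The log2 difference of DFR was 1.47 (SE 0.39, limma adjusted p = 0.0175), with a 95% interval from 0.65 to 2.28. By genotype its arrays numbered 2 stood 2.26-fold above those numbered 1 in wild type and 3.38-fold in KO-nudx19. The log2 difference of AT4G14090 was 1.38 (SE 0.42, limma adjusted p = 0.0372), with a 95% interval from 0.51 to 2.25. Its arrays numbered 2 stood 3.40-fold higher in wild type and 1.99-fold higher in KO-nudx19.

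The median log2 difference of all tested probe sets was −0.05. The signals of both genes did not overlap between the numbers, and 23.6% of tested probe sets lay apart in that direction. The calls depended on the settings. With no filter on dim probe sets the log2 differences were the same, 1.47 for DFR and 1.38 for AT4G14090, but limma called neither (adjusted p = 0.418 and 0.438), nor any of 22746 probe sets. With a floor at the 40th percentile the log2 differences were 0.77 and 0.54, with limma adjusted p-values of 0.0728 and 0.246. AT4G14090 also lost its call with no floor (limma adjusted p = 0.0505) and with no genotype term (0.0578). Over all alternatives with a test, the adjusted p ranged from 0.00559 to 0.418 for DFR and from 0.00978 to 0.438 for AT4G14090.

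UF3GT was at least 6.05-fold higher on wild-type replicate 2 than on replicate 1 and at least 4.17-fold higher in KO-nudx19, counting the arrays under the floor at the floor. Its log2 difference over both genotypes was 2.33, or 0.27 once the floor was raised to the 40th percentile. It was under the filter and had no test, and when dim probe sets were also tested its adjusted p in limma was 0.41. UGT78D2 differed little with the number, by 0.31 in wild type and 0.10 in KO-nudx19 on the log2 scale. Its difference over both genotypes was 0.21 (SE 0.24, limma adjusted p = 0.656), with a 95% interval from −0.30 to 0.71. This interval overlaps that of DFR (0.65 to 2.28), and whether these genes differ was not tested. AT5MAT was 1.99-fold higher on the array numbered 2 in wild type and 2.11-fold lower on it in KO-nudx19, and its difference over both was −0.041.

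The poly(A) controls given above were lower on both arrays numbered 2. The ratio of 3′ to 5′ actin signal, a measure of RNA integrity, was 2.30 and 4.27 for wild-type replicates 1 and 2 and, for KO-nudx19 replicates 1 and 2, 2.92 and 5.17 in 1 pair of control probe sets. In the other pair it was 22.0 and 20.6 in wild type, while KO-nudx19 had 12.2 and 20.5, with no common direction. The same ratio for GAPDH was higher on the array numbered 2 in each genotype in both pairs of control probe sets, from 1.71 to 1.99 and from 1.01 to 1.15 in wild type, and from 1.90 to 2.98 and from 0.986 to 1.38 in KO-nudx19. That for ubiquitin had no common direction in wild type and KO-nudx19, at 3.73 and 3.20 against 4.27 and 4.35, and at 1.53 and 1.44 against 1.48 and 1.95. The 4 leaf markers named above also had higher signals on the array numbered 2 in each genotype, with a sum of 35703 and 47432 in wild type, while KO-nudx19 had 49408 and 65683. The part of these measures in the differences of the members was not tested.

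**Figure D4:**
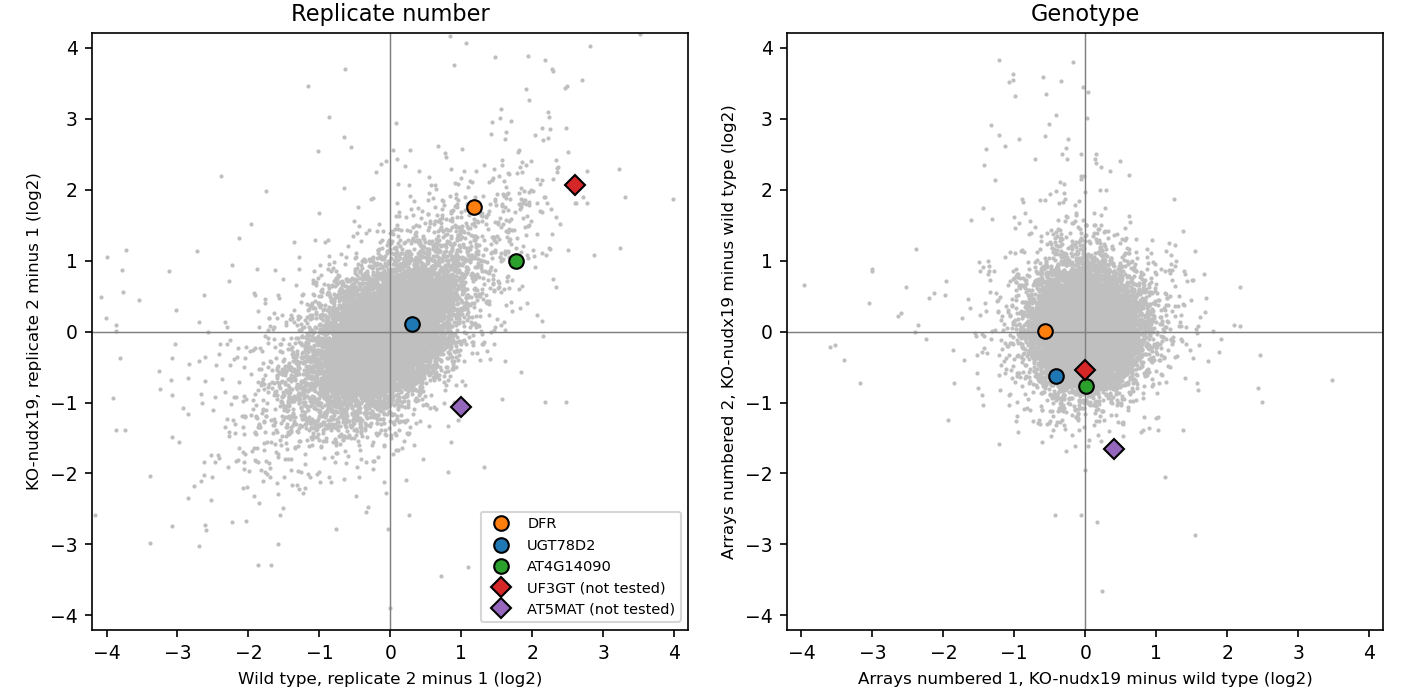
Each grey point is 1 of 13648 tested probe sets, and coloured symbols are the 5 genes (diamonds were not tested). The left panel sets the log2 difference between replicates 2 and 1 in wild type (horizontal) against that in KO-nudx19 (vertical), and the right panel sets the genotype difference on arrays numbered 1 against that on arrays numbered 2. Outside the axes of the left and right panels lie 21 and 6 grey points. DFR, AT4G14090 and UF3GT lie high and to the right in the left panel, and UGT78D2 lies near its centre.

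Of 51 other genes of the pathway, listed as phenylpropanoid entry enzymes, early and late flavonoid enzymes, decorating enzymes, transporters and regulators, 5 had a probe set naming them and 3 were tested. None of the 3 was called between the genotypes in limma, where 0% of all tested probe sets were called. By number 1 was called higher on the arrays numbered 2, against 4.93% of all tested probe sets. The listed regulators, such as the MYB activators of anthocyanin synthesis, and the phenylpropanoid entry enzymes had no probe set naming them and were not analysed here.

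UGT78D1, which attaches a rhamnose to flavonols and is a close relative of UGT78D2, had signals of 380 and 554 in wild type, while KO-nudx19 had 289 and 394 (replicates 1 and 2). Each KO-nudx19 array was lower than the wild-type array of its number, as for 24.8% of tested probe sets, but the genotypes overlapped. The log2 difference was −0.44 (SE 0.31, limma adjusted p = 1.00), at −0.39 within replicate 1 and −0.49 within replicate 2, beside −0.41 and −0.62 for UGT78D2. UGT78D1 was higher by 0.49 on the arrays numbered 2 (SE 0.23, limma adjusted p = 0.192).

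UGT89C1, which adds a further rhamnose to flavonols, had signals of 226 and 297 in wild type, while KO-nudx19 had 140 and 468. It was called higher on the arrays numbered 2, by 1.07 on the log2 scale (SE 0.28, limma adjusted p = 0.0159), at 0.39 in wild type and 1.75 in KO-nudx19. With no filter on dim probe sets limma called none by number, this gene included. Its genotype difference was −0.70 within replicate 1 and 0.66 within replicate 2. CHIL, an enhancer of chalcone synthase activity, had 73.1 and 73.6 in wild type, while KO-nudx19 had 62.7 and 113, so that only KO-nudx19 replicate 2 stood apart. BAN, the reductase of proanthocyanidin synthesis in the seed coat, had at most 7.73, and UGT78D3, an arabinosyltransferase of flavonols, at most 2.91, all under the floor.

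The genes whose log2 profiles over the 4 arrays were most like those of the tested members were found among 7359 other probe sets naming 1 gene, by the root mean square distance of centred profiles. This is a description, since with 4 arrays many profiles coincide. Closest to DFR were AT2G15440 (distance 0.0395, signals 38.6 and 81.5 in wild type, while KO-nudx19 had 25.2 and 87.5) and AT1G23100 (0.0825). Closest to UGT78D2 were AT4G19430 (0.0265, with 132 and 155 in wild type, while KO-nudx19 had 95.4 and 104) and the protein kinase gene PTI1-4 (0.0327, with 315 and 397 against 227 and 258). Closest to AT4G14090 were 4CL8, a gene of the coumarate-CoA ligase family (0.122, with 21.8 and 69.8 against 21.1 and 50.9), and AT1G73480 (0.139, with 365 and 1051 against 313 and 769). Among the members, DFR ranked 86 of 7359 in likeness to AT4G14090, and AT4G14090 ranked 130 in likeness to DFR, at a distance of 0.345. Both passed the filter only through the arrays numbered 2, where they were high, so their likeness supports nothing further. UGT78D2 ranked 1193 in likeness to AT4G14090, at 0.607, and in likeness to DFR it ranked 1731, at 0.67.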

How the data were processed

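Leaf RNA of 2 wild-type and 2 KO-nudx19 samples was measured, 1 array each. The authors' deposited values are linear intensity signals per probe set. GCOS (version not given) was used, per the submitters' processing notes; for background correction, probe summary and scaling target nothing is stated there. Scaling to a common mean leaves differences in the spread of signals in place. Groups came from the sample titles. Signals were floored at their 20th percentile (8.92) before taking log2. Probe sets with a mean signal under the 40th percentile (38.2) and 64 control probe sets were left out. KO-nudx19 was compared with wild type in limma 3.58.1 (R 4.3.3; lmFit, eBayes with a trend), and the replicate number in the same way with genotype as a term. The smallest two-sided p of an exact test on 2 and 2 arrays is 0.333. The code was tested on simulated data.

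Gene names came from the platform's annotation table and RefSeq (TAIR10.1); 13513 named 1 gene, 503 several, and 8730 are unnamed here. The members, gene lists and tests were chosen with earlier results of these data known. All members, all tested pathway genes (up to 6 a list) and the 2 genes most like each tested member were named. Deviations of same-numbered arrays from their genotype means correlated at 0.553 over probe sets, but with 2 pairs and no label this does not settle a pairing. Alternatives were other scalings, floors, filters and eBayes settings, a pseudocount, the replicate block, no genotype term, and leaving out each array.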

Additional observations from a re-analysis of the deposited data

Results flagged for a closer look

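For 3 members the genotype difference, KO-nudx19 minus wild type on the log2 scale, had opposite signs on the arrays numbered 1 and 2, and with 1 array per genotype and number the difference between them was not tested. For AT5MAT it was 0.41 on the arrays numbered 1 and −1.66 on those numbered 2. For DFR it was −0.57 and 0.01, and for AT4G14090 it was 0.004 and −0.77, so that in each of these genes one of the values lay close to 0.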

How the results depend on the processing

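The precision is limited by the small number of arrays, and signals near the floor of 8.92 limit UF3GT and AT5MAT. DFR and AT4G14090 were dim too on the arrays numbered 1, with at most 27.8 and 20.8. The limma count of probe sets differing between the genotypes was 0, and it was 2 with the replicate number as a block (replicate block) and 93 with the block and quantile normalization together, an alternative chosen after seeing the data. Leaving out single arrays it ranged from 0 to 10, with 10 without wild-type replicate 1. The block changed no call of a member, and whether the number pairs the arrays is not known. The count between the replicate numbers was 1535, against 1012 with the filter at the 60th percentile, where fewer probe sets were tested, and 0 with no filter, where 2705 had an unadjusted p under 0.05; the cause was not tested. It had no value with 1 array left out, since genotype and number then leave no residual degrees of freedom.

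UGT78D2 kept its direction under all 15 alternatives, but many of them could not turn it. Its arrays did not overlap between the genotypes, so leaving out 1 array could not change the sign. Other floors, filters, eBayes settings and the block left the difference at −0.52. The genotype difference of DFR was 0.005 with the floor at the 40th percentile, where the values of the arrays numbered 1 lie at the floor. Leaving out single arrays, which unbalances the numbers between the genotypes, it ranged from −1.16 to 0.60 for DFR, −1.27 to 0.50 for AT4G14090 and −1.57 to 1.03 for UF3GT. The replicate-number difference of AT5MAT (−0.041) was 0.027 after centring on the median and 0.021 with a pseudocount, and ranged from −1.07 to 0.99 without single arrays. DFR and AT4G14090 were too dim to be tested with the filter at the 60th percentile.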
